A study of Rattus norvegicus with 6 samples.

Results

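Tubulin isotypes and stathmin were followed in C6 rat glioma cells with and without overexpression of the water channel AQP1. Members were chosen by gene symbol, and 9 of the 10 symbols named for the set were measured among the 12121 listed genes. They comprised the alpha tubulins Tuba1a, Tuba1b and Tuba4a, the beta tubulins Tubb2a, Tubb2b, Tubb3, Tubb5 and Tubb6, and the stathmin gene Stmn1. Tuba1c, the tenth symbol, was not analysed here. C6 is an established line from a chemically induced rat brain tumour. The genotype labels read overexpress Aqp1 for the 3 C6-AQP1 libraries and control for the 3 C6 control libraries. Per the methods, the AQP1 sequence was placed in a pCDH vector with a CMV promoter. The labels and methods do not say whether the sequenced controls carried an empty vector or whether the transfected line was a clone. Separate cultures are not described for the libraries of a group, so p-values measure the spread between libraries, which may be technical.

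Microtubules are hollow polymers of alpha and beta tubulin dimers, and each class is made from several genes whose products, the isotypes, differ mainly in their acidic carboxy-terminal tails. Tuba1a, Tubb2a, Tubb2b and Tubb3 are the isotypes best known from developing neurons, Tuba1b and Tubb5 are made in most dividing cells, and Tubb6 is a broadly expressed isotype. Stathmin binds free tubulin dimers and promotes the shortening of microtubules, an activity that phosphorylation turns off in mitosis. The amount of tubulin mRNA is itself controlled, because TTC5 recognises nascent tubulin on ribosomes and triggers decay of the mRNA when free dimers are in excess.

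The tubulin isotypes with most reads and Stmn1 were lower in C6-AQP1 cells, by amounts that differed from gene to gene. At an adjusted p under 0.05 by the quasi-likelihood test of edgeR, 7 of the 9 members fell, 1 rose and 1 did not pass. Of all 12121 genes 40.7% were lower by this rule, 40.8% were higher and 81.5% were called in either direction. The median log2 fold change of the members was -0.76, while that of all genes was 0.00. With a fold change above 2 also required, 3 members were lower and 1 was higher, against 4.35% and 9.74% of all genes. In 8 of the 9 members no C6-AQP1 library overlapped a control library, as in 82.5% of all genes. In RNA from bulk cultures, fewer cells of a kind and less RNA per cell cannot be told apart.

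Library totals ranged from 19054244 to 52725870 counts, with replicate 1 the shallowest in either group. Aqp1, the introduced gene, had 1052, 1064 and 1057 normalized CPM (read counts relative to library size after TMM scaling) in the C6-AQP1 libraries and 347, 352 and 349 in the controls, so it was higher in every library labelled as overexpressing. Of 11 astroglial and glioma markers 7 were measured, and these summed to 4022 to 4101 normalized CPM in the controls and 6168 to 6374 in C6-AQP1. All 7 rose, where 40.8% of all genes were higher. Log2 fold changes were 3.57 for Gfap, the astrocyte filament protein, 1.48 for Aldoc, an aldolase of astrocytes, and 1.13 for Slc1a3, a glutamate transporter. Of 7 macrophage and microglia markers only Cd14 was measured, with a log2 fold change of -0.78 and 72.6 ± 1.86 normalized CPM in the controls (SD, n = 3). All 15 measured proliferation markers, beside 40.7% of all genes, were lower in C6-AQP1. The markers had a median log2 fold change of -1.15. Their summed level lay between 4021 and 4049 normalized CPM in the controls and between 1976 and 2006 in C6-AQP1, and none was at 0 in every library. These markers thus moved in the same direction as the 7 members that fell, but not as Tuba4a, which rose, or Tubb3, which did not pass. Their part in those falls was not tested.

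**Figure D1:**
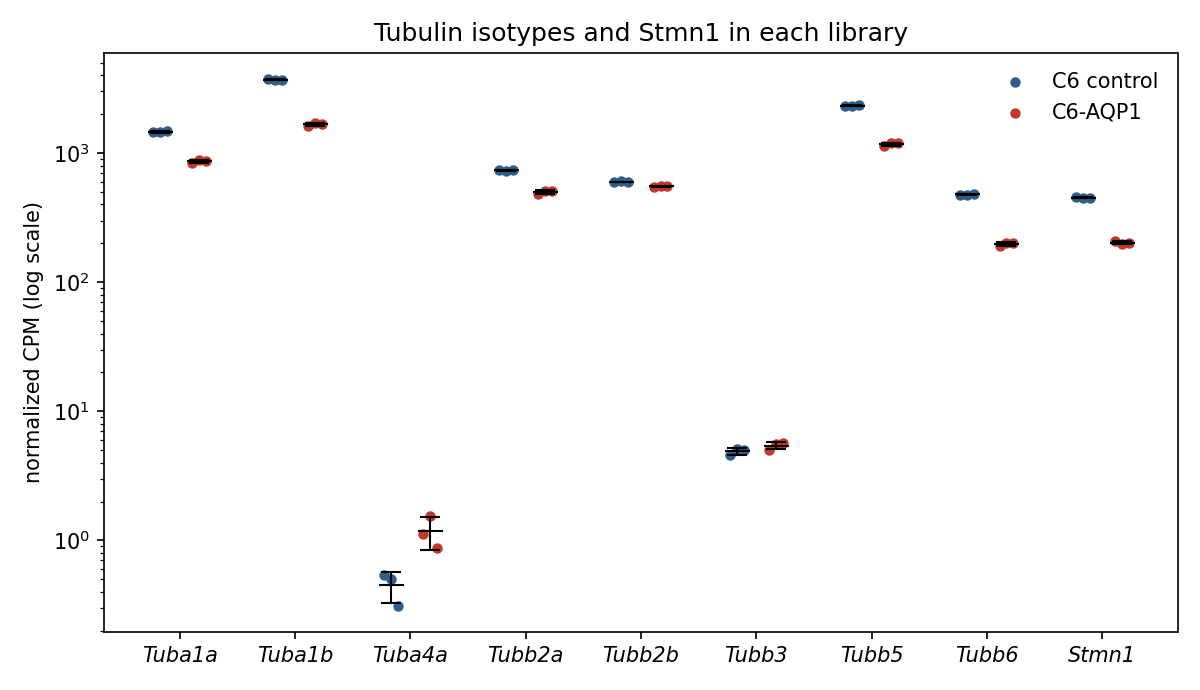
Levels of the 9 measured members in normalized CPM (log axis), with 1 point per library and black bars for group mean and SD (n = 3). C6-AQP1 libraries lie below the control libraries for 7 members, above them for Tuba4a, and overlap them for Tubb3.

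Promoter sequences of 5 members are shown to set Stmn1, Tuba1b and Tubb5, which fell by about 2-fold, beside the class II pair Tubb2a and Tubb2b, which fell less. The promoter of Tubb6, the member with the largest fall, was searched with the others and is not printed. All 9 measured members matched the RefSeq promoter table of the GRCr8 build by symbol. The 250 bases before the start are given 5′ to 3′ on the strand of the gene. Capitals mark, on either strand, the CCAAT box (CCAAT), the TATA core (TATAA), the E-box (CACGTG, its own reverse complement) and E2F sites (TTTGGCGC or TTTCGCGC).
Stmn1 (chr5:151964929-151965178, plus strand): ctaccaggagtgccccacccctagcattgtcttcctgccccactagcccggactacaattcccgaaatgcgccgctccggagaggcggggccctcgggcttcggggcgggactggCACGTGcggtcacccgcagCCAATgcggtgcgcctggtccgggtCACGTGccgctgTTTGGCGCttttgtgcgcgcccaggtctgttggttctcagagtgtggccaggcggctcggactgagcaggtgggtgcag
Tuba1b (chr7:131972588-131972837, minus strand): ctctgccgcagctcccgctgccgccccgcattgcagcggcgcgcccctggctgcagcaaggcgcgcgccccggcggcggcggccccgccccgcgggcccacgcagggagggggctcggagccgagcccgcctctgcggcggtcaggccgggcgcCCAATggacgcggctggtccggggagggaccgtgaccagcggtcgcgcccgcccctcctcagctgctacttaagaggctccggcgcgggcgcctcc
Tubb5 (chr20:2917327-2917576, plus strand): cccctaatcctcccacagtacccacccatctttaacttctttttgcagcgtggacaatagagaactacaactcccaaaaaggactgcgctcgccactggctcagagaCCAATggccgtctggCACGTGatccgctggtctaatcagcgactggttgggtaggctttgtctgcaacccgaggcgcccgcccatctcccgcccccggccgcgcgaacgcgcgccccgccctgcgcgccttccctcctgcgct
Tubb2b (chr17:30952836-30953085, plus strand): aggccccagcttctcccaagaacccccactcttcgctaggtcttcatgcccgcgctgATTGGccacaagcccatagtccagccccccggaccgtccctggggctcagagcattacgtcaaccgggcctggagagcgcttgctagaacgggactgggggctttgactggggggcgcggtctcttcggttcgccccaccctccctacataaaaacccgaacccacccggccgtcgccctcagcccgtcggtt
Tubb2a (chr17:31001936-31002185, plus strand): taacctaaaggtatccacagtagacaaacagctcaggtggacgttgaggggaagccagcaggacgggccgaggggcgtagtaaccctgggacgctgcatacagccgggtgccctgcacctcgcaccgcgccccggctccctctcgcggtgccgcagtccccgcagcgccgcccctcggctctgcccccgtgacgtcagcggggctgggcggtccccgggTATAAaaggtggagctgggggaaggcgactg
In these windows the letters CCAAT occurred in 7 of 9 members and in 34.0% of all 33469 promoters of the table. Shares of all promoters were not limited to the genes listed for these cells, so no enrichment is read from them. The exceptions were Tuba4a and Tubb2a, both of which held TATAA, as did Tuba1a and Tubb3. TATAA was present in 24.0% of all promoters. The site TTTGGCGC was found in Stmn1 alone among the members, with its first base 79 bases before the start, and in 0.412% of all promoters. The form TTTCGCGC was found in no member and in 0.248% of all promoters. CACGTG was found at 2 places in Stmn1 and 1 place in Tubb5, and in 5.59% of all promoters. Among other letters searched, the GC box GGGCGG occurred in 8 members and 30.5% of all promoters, and GGGAGGG, bound by MAZ, in 4 members and 18.7%. TTGTTTAC, of the forkhead factors, was in no member and in 0.947% of all promoters. No match in a window says only that these letters are absent there, and a match is a description of sequence.

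Among the alpha tubulins, Tuba1b (ENSRNOG00000053468) had 3723, 3689 and 3669.9 normalized CPM in C6 control replicates 1, 2 and 3. In the C6-AQP1 libraries it had 1625, 1707 and 1682. All C6-AQP1 libraries were thus below all controls, and the groups lay far apart compared with the spread inside them. The log2 fold change was -1.14 (standard error, SE, 0.02), or 2.21-fold lower, with an adjusted p of 1.7e-22 by edgeR. Tuba1a (ENSRNOG00000060728), a major alpha isotype of developing neurons, had 1443.5, 1456 and 1481 normalized CPM in the controls and 839, 881 and 867 in C6-AQP1. It too was lower in every C6-AQP1 library, and the log2 fold change was smaller at -0.76 (SE 0.02, edgeR adjusted p = 4.2e-19). The 2 genes are neighbours on the chromosome and encode very similar proteins. Neither had whole-number counts in any of the 6 libraries, within a tolerance of 0.005, as happens where RSEM divides reads between genes. Their sum was also whole in 0 of the 6 libraries, so adding them does not remove the division of reads. Summed before the fit, Tuba1a and Tuba1b had a log2 fold change of -1.02 (SE 0.02, edgeR adjusted p = 6.9e-22).

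Tuba4a (ENSRNOG00000003597), an alpha isotype made without the final tyrosine that other alpha tubulins carry, went the other way at a very low level. Its counts were 12, 26 and 16 in the control libraries and 22, 64 and 37 in C6-AQP1. After scaling these were 0.538, 0.503 and 0.313 normalized CPM against 1.13, 1.55 and 0.875, so the groups did not overlap although the C6-AQP1 libraries were scattered. The log2 fold change was 1.44 (SE 0.30, edgeR adjusted p = 1.4e-04). At 54 counts in the controls together, its size was less certain than that of any other member. It ranged from 1.15 without C6-AQP1 replicate 2 to 1.66 without C6-AQP1 replicate 3. The authors kept genes with a mean TPM above a threshold in a group. A gene this low may be listed only through C6-AQP1, so its rise is a description.

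The beta tubulin with the largest fall was Tubb6 (ENSRNOG00000018371). It had 477, 475 and 484 normalized CPM in the controls and 191, 202 and 203 in C6-AQP1. This was 2.40-fold lower, and its log2 fold change was -1.27 (SE 0.02, edgeR adjusted p = 1.2e-21), and only 2.41% of all genes had a lower one. Tubb5 (ENSRNOG00000061216), the common beta isotype of dividing cells, had 2318, 2323 and 2338 normalized CPM in the controls and 1139, 1194 and 1191 in C6-AQP1. Its log2 fold change of -0.99 (SE 0.02, edgeR adjusted p = 2.9e-21) lay just inside the 2-fold threshold. For both genes the 3 control libraries were nearly equal and no C6-AQP1 library came near them. Their counts were whole numbers in all 6 libraries, so no division of reads by RSEM was visible in them.

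Tubb2a and Tubb2b, the class II beta tubulins of brain, fell by less. Tubb2a (ENSRNOG00000017558) had 739, 729 and 738 normalized CPM in the controls and 478, 506 and 512 in C6-AQP1. Its log2 fold change was -0.56 (SE 0.02, edgeR adjusted p = 2.4e-15). Tubb2b (ENSRNOG00000017445) had 594, 602 and 597 against 545, 555 and 552. Its log2 fold change was -0.12 (SE 0.02, edgeR adjusted p = 4.2e-06). The fall of Tubb2b was small but larger than the spread of the libraries, which did not overlap. With library totals in place of TMM factors it was -0.06 (adjusted p = 0.0024 by edgeR). The counts of the pair were whole in no library when taken alone and whole in all 6 when added, as when RSEM divides reads between these genes alone. Their sum, which does not depend on that division, had 1333 ± 1.53 normalized CPM in the controls and 1049 ± 22.6 in C6-AQP1 (SD, n = 3). The sum had a log2 fold change of -0.34 (SE 0.02, edgeR adjusted p = 1.4e-13). The separate values of Tubb2a and Tubb2b therefore rest on the estimated division of reads.

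Tubb3 (ENSRNOG00000017209), the class III beta tubulin used as a marker of neurons, was the member that did not pass the test. It had 4.58, 5.14 and 5.03 normalized CPM in the controls and 5.02, 5.55 and 5.67 in C6-AQP1, and the groups overlapped. The log2 fold change was 0.14 (SE 0.11, edgeR adjusted p = 0.23), which, with 625 counts in the controls together and 567 in C6-AQP1, does not show that its level was equal. Other neuronal markers were mixed. Of 8 measured, 5 rose and 2 fell, where 40.8% of all genes were higher and 40.7% lower. The summed level of the 8 was 950.1 to 970.3 normalized CPM in the controls and 936.5 to 977.3 in C6-AQP1. Log2 fold changes were 6.11 for Syt1, which senses calcium at synapses, 2.87 for Snap25, of the vesicle fusion machinery, and -2.02 for Nefm, a neurofilament subunit. Syt1 and Snap25 were very low in the controls, at 0.166 ± 0.0645 and 0.241 ± 0.109 normalized CPM (SD, n = 3). Both may have passed the authors' TPM filter only through C6-AQP1. No measured neuronal marker was at 0 in every library.

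Stmn1 (ENSRNOG00000016810) had 455, 448 and 445 normalized CPM in the controls and 208, 199 and 199 in C6-AQP1. Every C6-AQP1 library thus had less than any control. The log2 fold change was -1.16 (SE 0.02, edgeR adjusted p = 2.4e-21), or 2.23-fold lower, and 3.13% of all genes had a lower one. Other stathmin genes were not analysed here. The fall of Stmn1 stood close to that of Tuba1b, and the log2 ratio of the 2 genes differed between the groups by -0.01, with overlapping libraries. Of the proliferation markers described above, Ccna2, Ccnb1 and Cdk1, which drive entry into mitosis, had log2 fold changes of -1.48, -1.47 and -1.35.

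**Figure D2:**
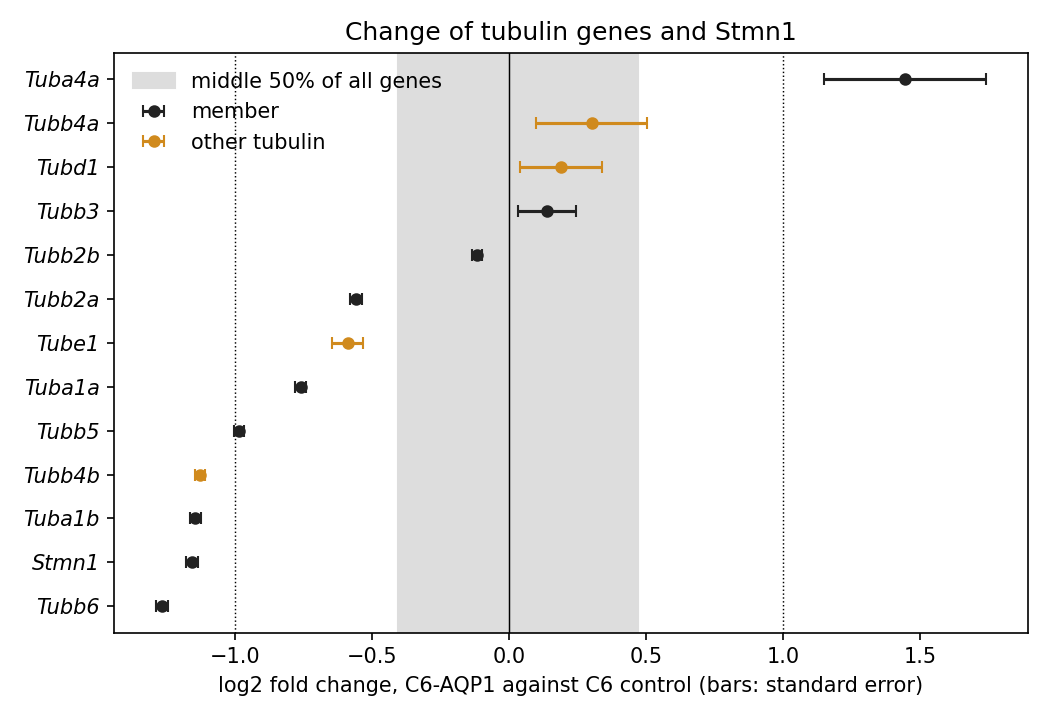
Log2 fold change of each tubulin gene and Stmn1, with bars for the standard error from edgeR, 3 libraries per group. Black points are the members and orange points the other tubulins, the grey band holds the middle 50% of all genes, and the dotted lines mark a 2-fold change. Tubb6, Stmn1, Tuba1b and Tubb4b lie beyond the 2-fold line on the left, and Tuba4a beyond it on the right.

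To describe how far the changes of the members stood apart, the genes were put in order of log2 fold change and the log2 ratio of each neighbouring pair was compared between the groups. This ratio uses both genes of the same library and does not depend on scaling. Since the order was set by the same fold changes, the sign of every difference is fixed by it, and no test is given. Of 8 pairs, 7 did not overlap between the groups, and the exception was Stmn1 with Tuba1b. The levels of 82.5% of all genes did not overlap, and the ratios of other gene pairs were not compared. The ratio of Tuba1b to Tubb5 was lower in C6-AQP1 by 0.16 and that of Tubb5 to Tuba1a by 0.23 on the log2 scale. For Tubb2a to Tubb2b the difference was -0.44, the largest outside the pair of Tubb3 and Tuba4a. That ratio rests on the estimated division of reads between the genes.

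The make-up of the tubulin reads differed between the groups. All values here are shares of reads, which rise with transcript length, and since lengths were not used here no order of levels between isotypes is read from them. Tuba1b took 71.7% ± 0.404 of the alpha tubulin reads in the controls and 65.9% ± 0.0196 in C6-AQP1 (SD, n = 3). The share of Tuba1a went from 28.3% ± 0.406 to 34.0% ± 0.0106. Tuba4a had a share of 0.00875% ± 0.00234 in the controls and 0.0466% ± 0.0128 in C6-AQP1. These shares are of the 3 measured alpha members alone, without Tuba1c, whose reads are not counted in them. Those of Tuba1a and Tuba1b also rest on the estimated division of reads.

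Beta shares are of the 5 measured beta members alone, without Tubb4b and Tubb4a, described below. In this class the share of Tubb5 went from 56.2% ± 0.0522 in the controls to 48.4% ± 0.0962 in C6-AQP1 (SD, n = 3). That of Tubb6 went from 11.6% ± 0.0732 to 8.18% ± 0.0713. Tubb2b moved most in the other direction, from 14.4% ± 0.116 to 22.7% ± 0.374, and Tubb2a went from 17.7% ± 0.117 to 20.5% ± 0.253. Both shares rest on the estimated division of reads between these genes. The neuronal isotype Tubb3 had 0.119% ± 0.00705 and 0.223% ± 0.00902 of the beta reads. So the share of Tubb3 was higher in every C6-AQP1 library although its own level did not pass the test. A share rises when the rest of its class falls, and Tubb5, with most beta reads, went from 2326 to 1175 normalized CPM (means). The shares of Tubb2a and Tubb2b likewise rose while their own levels fell. None of the 8 shares overlapped between the groups, each at the smallest exact permutation p of 0.1 that this design allows. The levels of 82.5% of all genes did not overlap either. Shares of a class depend on each other, so these are not 8 separate results.

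The 8 tubulin members together took 0.912% ± 0.00209 of all counts in the controls and 0.506% ± 0.01 in C6-AQP1 (SD, n = 3). Among these members alone, without Tuba1c, Tubb4b and Tubb4a, the ratio of alpha to beta reads was 1.24 in the controls and 1.04 in C6-AQP1. The difference was -0.25 on the log2 scale. Stmn1 was also lower relative to tubulin. Its reads were 0.0483 times the tubulin reads in the controls and 0.0407 times in C6-AQP1, a difference of -0.25 on the log2 scale. For each of these quantities the 3 C6-AQP1 libraries lay below the 3 controls (exact permutation p = 0.1, two-sided, the smallest this design allows). The levels of 82.5% of all genes did not overlap either. These quantities are built from the member levels given above, so they are not separate results.

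**Figure D3:**
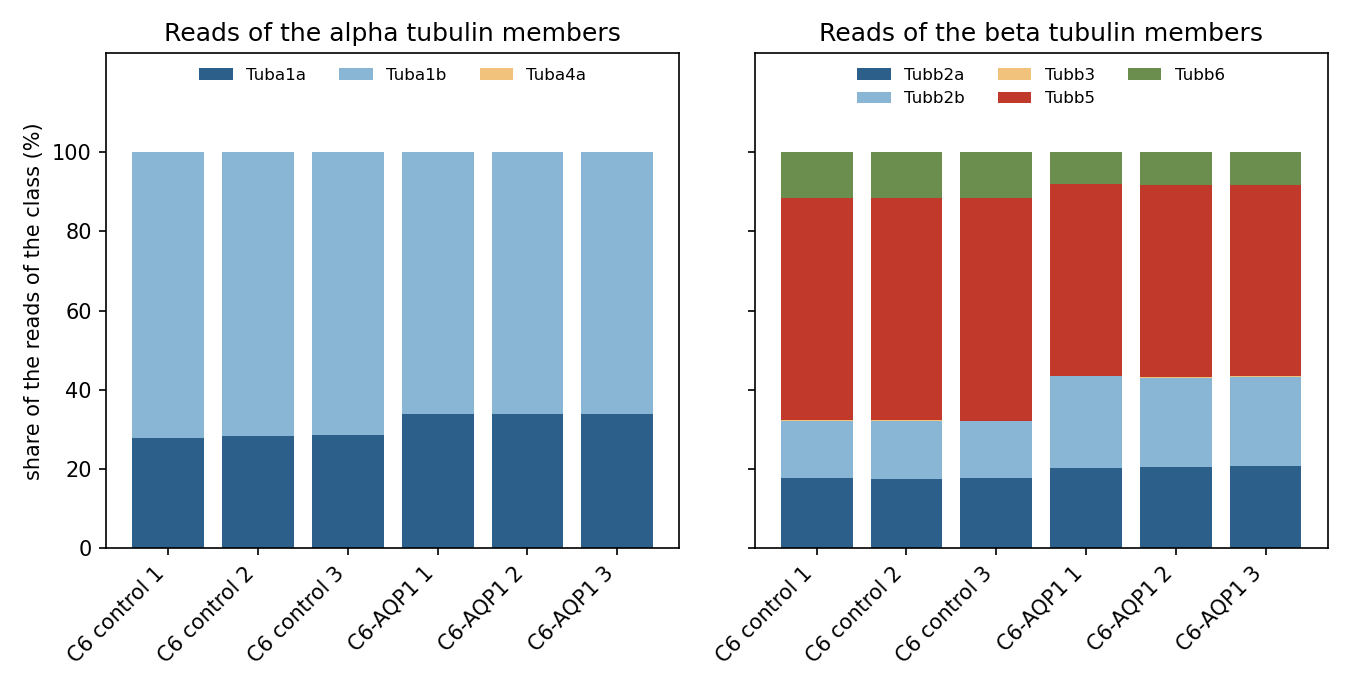
Share of each member in the reads of the alpha tubulin members (left) and of the beta tubulin members (right), in percent, for each library. In C6-AQP1 the bands of Tuba1a, Tubb2a and Tubb2b are wider and those of Tuba1b, Tubb5 and Tubb6 narrower, while Tuba4a and Tubb3 are too small to see.

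Other tubulins were measured outside the set. Tubb4b, a beta isotype of dividing and ciliated cells, had 902, 890.3 and 891 normalized CPM in the controls and 406, 414 and 408 in C6-AQP1. It was lower in every C6-AQP1 library, with the log2 fold change at -1.13 (SE 0.02, edgeR adjusted p = 1.8e-22). The epsilon tubulin Tube1, a centriole protein, had a log2 fold change of -0.59 (adjusted p = 4.3e-09 by edgeR). The brain isotype Tubb4a had 0.30 and the delta tubulin Tubd1 0.19 on the same scale, and neither passed the test. When Tubb4b and Tubb4a were counted with the beta class, the log2 ratio of alpha to beta reads was 0.03 in the controls and -0.16 in C6-AQP1. The difference was -0.20, and alpha reads no longer exceeded beta reads in C6-AQP1. Tubb2b then had 11.9% ± 0.0995 of the beta reads in the controls and 19.4% ± 0.265 in C6-AQP1 (SD, n = 3). On the same count Tubb5 had 46.2% ± 0.122 in the controls and 41.4% ± 0.168 in C6-AQP1.

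New tubulin chains are passed by prefoldin to the CCT chaperonin and then to the tubulin cofactors, which join alpha and beta chains. All 15 measured genes of CCT and prefoldin fell in C6-AQP1, where 40.7% of all genes were lower, with a median log2 fold change of -0.76 and a range from -0.996 to -0.47. Pfdn4, a prefoldin subunit, and the chaperonin subunits Tcp1 and Cct8 had log2 fold changes of -0.996, -0.95 and -0.89. CCT also folds actin and other proteins. Of 7 measured tubulin cofactors, 5 fell, 1 rose and 1 did not pass, with a median of -0.14. Of all genes 40.7% were lower, 40.8% were higher and 81.5% were called in either direction. Tbca and Tbcc, which hold beta chains and complete dimer assembly, had log2 fold changes of -1.003 and -1.01, while the cofactor-like Tbcel had 0.97. A second listed gene with the symbol Tbca had almost no counts and was left out.

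The 3 measured genes of tubulin mRNA decay changed little and in both directions. Ttc5, the factor that reads nascent tubulin, had 43.6 ± 1.40 normalized CPM in the controls and 46.5 ± 3.10 in C6-AQP1 (SD, n = 3). Its log2 fold change of 0.11 (adjusted p = 0.022 by edgeR) was small, and its libraries overlapped. Scaper and Cnot11, which link TTC5 to the deadenylase, moved by 0.28 and -0.31 on the log2 scale (edgeR adjusted p = 1.2e-05 and 1.4e-06).

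Of 18 measured nucleation genes, of the gamma tubulin complexes and augmin, 10 fell, 4 rose and 4 did not pass, where 40.7% of all genes were lower and 81.5% were called. Their median log2 fold change was -0.35, beside 0.00 for all genes. Tubg1, the main gamma tubulin, had a log2 fold change of -0.82, and the augmin subunit Haus8 of -1.13. Tubg2, the gamma tubulin known from brain, had 0.93 at a low level, with 2.89 ± 0.197 normalized CPM in C6-AQP1 and 1.52 ± 0.0748 in the controls (SD, n = 3). Tubg2 may have passed the authors' TPM filter only through C6-AQP1.

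Of 20 measured genes for proteins that bind the microtubule lattice, 14 rose and 6 fell, where 40.8% of all genes were higher and 40.7% lower. The median log2 fold change of this list was 0.40. Mapt, the axonal protein tau, went from 14.4 ± 0.756 to 47.4 ± 1.85 normalized CPM (SD, n = 3). For Mapt the log2 fold change was 1.71 (SE 0.05, edgeR adjusted p = 3.1e-18). Tppp, which bundles microtubules in oligodendrocytes, and Map6d1, related to the cold-stability protein MAP6, had 3.66 and 2.68 on the same scale. Both were low in the controls, at 0.245 ± 0.0276 and 0.237 ± 0.0136 normalized CPM (SD, n = 3). These 2 genes may have passed the authors' TPM filter only through C6-AQP1, and they are counted among the 14. The spindle proteins Prc1 and Tpx2, singled out after their values were seen, were among those that fell, with log2 fold changes of -0.92 and -0.84. In the markers of the oligodendrocyte lineage, 8 of 9 measured rose, Olig1 and Olig2, transcription factors of that lineage, among them with log2 fold changes of 2.68 and 0.93, and their summed level was 2828 to 2912 normalized CPM in the controls and 4077 to 4220 in C6-AQP1. Their part in the rise of Tppp was not tested.

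Among 16 plus-end proteins, 9 rose, 5 fell and 2 did not pass, with a median log2 fold change of 0.22. Of all genes 40.8% were higher and 81.5% were called, so the share called in this list was near the background. Macf1, which links microtubule ends to actin, had 1.38, the plus-end binder Mapre3 had 0.80, and Tacc3, of the spindle, had -0.88. Of 9 minus-end and severing proteins, 3 rose, 3 fell and 3 did not pass, where 40.8% of all genes were higher and 40.7% lower. Fign, fidgetin, had a log2 fold change of 1.64, and the related Fignl1 and the katanin subunit Katna1 had -0.55 and -0.33. Enzymes that modify tubulin counted 7 rises, 3 falls and 5 without a call among 15, with a median of 0.20, and the share that rose was near the 40.8% of all genes. Atat1, the alpha tubulin acetyltransferase, went from 28.9 ± 0.781 to 71.2 ± 1.45 normalized CPM (SD, n = 3). For Atat1 the log2 fold change was 1.30 (SE 0.04, edgeR adjusted p = 2.6e-18). The carboxypeptidases Agbl3 and Agbl5, which trim tubulin tails, had log2 fold changes of 2.17 and 0.53. Agbl3 was low in the controls, at 0.979 ± 0.0568 normalized CPM (SD, n = 3). It may have passed the authors' TPM filter only through C6-AQP1, and it is counted among the 7 rises.

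**Figure D4:**
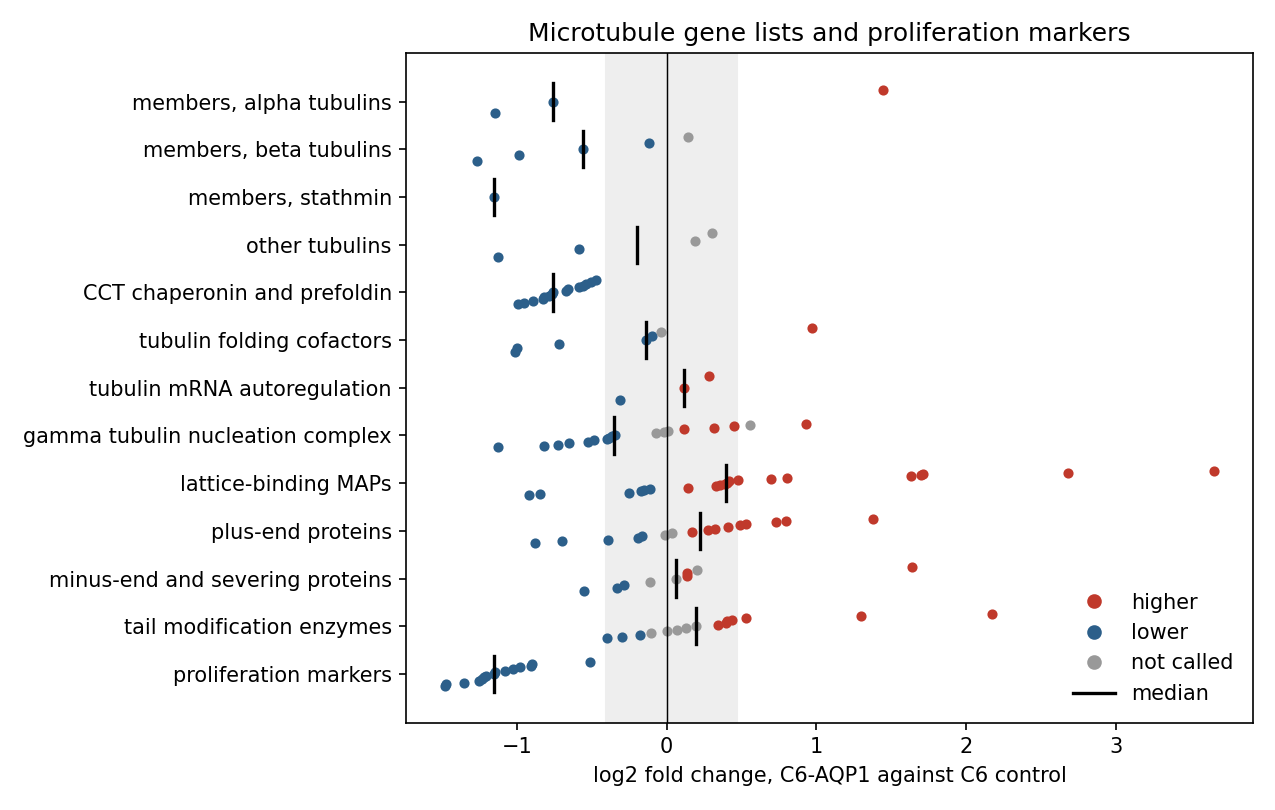
Log2 fold change of every measured gene in the microtubule lists and the proliferation markers. Each point is a gene, coloured by its call at an adjusted p under 0.05 from edgeR, the black bar is the list's median and the grey band holds the middle 50% of all genes. The 15 genes of CCT and prefoldin and the 15 proliferation markers all lie below 0, while most lattice-binding proteins lie above it.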

How the data were processed

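RNA from 3 C6-AQP1 and 3 C6 control libraries was sequenced. According to the study's methods and the tools listed by the submitters, the authors ran FastQC 0.11.2, Trimmomatic 0.36, STAR 2.5.1b on rn6 and RSEM 1.2.29, and kept genes with a mean TPM above a threshold in a group. No annotation version is named there. Deposited values are RSEM expected counts from the authors, without normalization. These were rounded and compared with edgeR 4.0.16 (R 4.3.3; TMM factors, robust quasi-likelihood test, no covariates), with Benjamini-Hochberg adjustment over all 12121 genes. DESeq2 1.42.0 and limma 3.58.1 served as alternatives, and these steps were tested on simulated data. A call required adjusted p under 0.05 and, where stated, over 2-fold change. For a repeated symbol the row with the highest mean count was kept. Replicates of a group differed by more than counting noise (chi-square per degree of freedom 2.15 to 4.31), so each was counted. Members and gene lists were chosen with earlier results of these data known, and the promoter letters after those promoters had been seen. The text names all members, any gene of a list with 4 or fewer measured genes, and otherwise up to 3 called genes of each list with the largest change and at least 50 counts in the higher group. A gene that this rule names is not reported here. Levels per transcript length, planned for comparing isotypes, and protein sequences were not used here, so shares are of reads.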

Additional observations from a re-analysis of the deposited data

How the results depend on the processing

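With other scaling, DESeq2, limma-voom, filterByExpr, unrounded counts, summed symbols, a replicate block, or with each library or replicate 1 of both groups left out, the 7 members remained lower at an adjusted p under 0.05 and Tubb3 stayed uncalled. Requiring at least 50 counts in every library removed Tuba4a, so that 0 members were higher and 0 were higher past 2-fold. The log2 fold change of Tubb6 ranged from -1.28 to -1.21 and that of Stmn1 from -1.17 to -1.10. Adding up Tubb2a and Tubb2b, or Tuba1a and Tuba1b, was chosen after seeing the data. No share or ratio changed direction with libraries left out or with other tubulins added. The replicate block in edgeR, for numbers shared by the labels alone, changed no call of a member (log2 fold change of Tubb2b -0.12, adjusted p = 7.4e-08) and gave 9982 called genes in place of 9878. Deviations of same-numbered libraries correlated across genes at 0.17, -0.05 and 0.19, which does not establish pairs. An exact sign-flip permutation test of 3 differences cannot go below p = 0.25. Levels per kilobase were not run. Tuba4a is limited by depth.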

Other observations

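Over the 6 libraries, the gene profiles nearest to that of Tubb6, by Euclidean distance of centred log2 CPM among 10945 genes, were those of Plp2, Plk1 and Ccdc124, at 0.059, 0.068 and 0.071. Their log2 fold changes were -1.27, -1.23 and -1.28. Nearest to Tuba4a were Nfatc4, Gpld1 and Tnfsf15, at the larger distances of 0.496, 0.578 and 0.585. The 10945 genes had a mean of at least 50 counts in both groups. Tuba4a itself, with 54 counts in the controls together, lay below that limit, so its distances are less certain. All these distances describe likeness over 2 groups of 3 libraries.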
